A study of Mus musculus with 110 samples.

Results

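Nnmt, Pemt, Inmt, Hnmt, Tpmt, Gamt and As3mt encode enzymes that move a methyl group from S-adenosylmethionine (SAM) to a small molecule. They were chosen by name, and all 7 were found among the 56884 genes of the count tables. Levels were measured by RNA-seq in liver, interscapular brown (iBAT), inguinal white (iWAT) and epididymal white (eWAT) adipose tissue of 28 male, single-housed, wild-type C57BL/6N mice, 16 weeks old at the end, in 4 groups of 7. All mice ate a diet without cysteine, which held 0.86% methionine (Ctrl) or 0.12% methionine (MetR), for 7 days at 22 °C (room temperature, RT). The study's sources differ slightly on the methionine of the Ctrl diet, and the series' own text is followed here. Ctrl_RT and MetR_RT stayed at 22 °C, and Ctrl_CE and MetR_CE then spent 24 h at 4 °C (cold exposure, CE) on the same diet, so the cold groups were also fed for a day longer and the 2 cannot be told apart.

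Of 110 libraries, 105 entered the comparisons, since the study's own exclusions were followed (1 Ctrl_CE library in iBAT, 3 Ctrl_RT libraries and 1 MetR_RT library in eWAT). Groups held 7 libraries each, except for 6 in iBAT Ctrl_RT, iBAT Ctrl_CE, iWAT MetR_CE and eWAT MetR_RT and 4 in eWAT Ctrl_RT. Total counts ran from 6987895 to 33444374 per library, and the shallowest libraries were from liver. All 8 hepatocyte markers were measured above 1 CPM (the counts of a gene scaled to a common library total) in liver, and all 7 brown adipocyte markers in iBAT. Skeletal muscle markers summed to between 2.81 and 21637 CPM over the iWAT libraries, and epididymis markers reached 1269.5 CPM in a library of eWAT MetR_RT. In 3 of the groups of iBAT (MetR_RT, Ctrl_CE and MetR_CE) replicate 1 bears a treatment tag that names another group than the title. In liver, iWAT and eWAT the libraries of the same mice bear tags that match these iBAT titles. The iBAT libraries were grouped by title, and where grouping by tag ended a call given here, its value by tag is given. In a bulk tissue, fewer cells of a type and less RNA per cell cannot be told apart.

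SAM is made from methionine by methionine adenosyltransferases, and each methyl transfer leaves S-adenosylhomocysteine, which is split by Ahcy and inhibits many of the enzymes that use SAM. In liver, the methylation of guanidinoacetate to creatine (Gamt) and of phosphatidylethanolamine to phosphatidylcholine (Pemt) are known as large consumers of SAM. Nnmt methylates nicotinamide, which withdraws it from the salvage of NAD, and has been studied in liver and white fat for its role in energy balance. Hnmt inactivates histamine, Inmt methylates tryptamine and related amines, Tpmt methylates thiopurine drugs and As3mt methylates inorganic arsenic.

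In the GENCODE M21 annotation of mouse build GRCm38 all 7 are protein-coding genes. Nnmt lies at chr9:48591877-48605153, Pemt at chr11:59970614-60046489, Inmt at chr6:55170626-55175043, Hnmt at chr2:24002910-24049394, Tpmt at chr13:47022482-47044737 and Gamt at chr10:80258151-80261012, each on the minus strand, and As3mt at chr19:46707458-46741099 on the plus strand. An exon of Tpmt overlaps the processed pseudogene Gm18807 on the other strand. Strand marking of the libraries is not given in the sources used here, so reads of that overlap cannot be divided between them.

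The region before the transcription start is shown for 4 members with different calls in the main edgeR fits. These are Inmt, called in liver and iWAT, Hnmt, called in iBAT, Gamt, called in iBAT and iWAT, and Tpmt, called nowhere. The sequences are RefSeq promoter windows (GRCm38.p6), 5′ to 3′ on the gene's strand (minus for all 4), at chr6:55175044-55175240, chr2:24049395-24049629, chr10:80261013-80261262 and chr13:47043344-47043467, and only their part outside any annotated exon is printed. For Tpmt that part lies inside the annotated span of the gene, ahead of the start of the RefSeq transcript. Capitals mark TATAAA, and GGGCGG on either strand (as CCGCCC on the other strand).
Inmt: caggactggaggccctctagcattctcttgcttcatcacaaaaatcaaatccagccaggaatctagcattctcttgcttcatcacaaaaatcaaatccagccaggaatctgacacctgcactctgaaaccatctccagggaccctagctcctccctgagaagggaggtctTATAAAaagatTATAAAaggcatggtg
Hnmt: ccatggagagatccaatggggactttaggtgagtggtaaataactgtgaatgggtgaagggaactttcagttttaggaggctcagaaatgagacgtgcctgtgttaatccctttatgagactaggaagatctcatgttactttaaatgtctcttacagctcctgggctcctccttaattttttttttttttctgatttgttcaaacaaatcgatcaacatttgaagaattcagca
Gamt: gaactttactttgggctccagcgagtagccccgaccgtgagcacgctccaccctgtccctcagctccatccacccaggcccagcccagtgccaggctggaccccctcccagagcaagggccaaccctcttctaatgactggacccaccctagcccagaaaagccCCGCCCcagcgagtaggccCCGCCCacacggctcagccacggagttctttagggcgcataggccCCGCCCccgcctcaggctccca
Tpmt: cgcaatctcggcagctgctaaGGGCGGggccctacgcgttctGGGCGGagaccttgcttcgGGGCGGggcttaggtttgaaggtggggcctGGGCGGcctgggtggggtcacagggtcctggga

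RefSeq windows were matched for 6 members, with 7 windows because Pemt has 2. Over the 250 bases before the start, the windows of Gamt and Tpmt were richest in G and C (66.8% and 69.2%) and that of Hnmt poorest (38.8%), beside a median of 52.4% (quartiles 45.2% and 61.2%) over 32851 mouse promoters. Within these 250 bases the Inmt window holds TATAAA 2 times on the gene's strand. On either strand, over the full 300 bases (250 before to 50 after the start), TATAAA was found in 13.6% of all promoters. On the same count GGGCGG occurs in the windows of Gamt and Tpmt and in 35.7% of all promoters. These 2 motifs were added after the sequences were seen. TGATGNAAN, the shape of a CCAAT/enhancer-binding protein-ATF response element, TGACGTCA, a cyclic AMP response element, and TGACNNNGC, the core of an antioxidant response element, were searched on both strands and found in 0 of the 7 windows and in 3.95%, 1.79% and 12.4% of all promoters.

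In Ctrl_RT mice liver held the highest mean level of every member except Hnmt, an order that turned for Nnmt between liver and eWAT without scaling by trimmed means of M-values (TMM). For comparison between genes, levels were taken per kilobase of exon, on CPM normalized over all 4 tissues together. On this scale the liver levels fell into 2 tiers, with Gamt at 168, Pemt at 139, Inmt at 131 and Nnmt at 131 CPM per kilobase, and As3mt at 18.5, Tpmt at 12.96 and Hnmt at 12.9. In eWAT and iWAT Nnmt led (77.6 and 50.8 CPM per kilobase) and was followed by Gamt (20.7 and 12.3), with Inmt at 16.03 and 10.5 and Hnmt at 13.4 and 11.48. In iBAT levels ran from 1.98 CPM per kilobase for Inmt to 7.76 for Hnmt, with Nnmt at 7.39.

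**Figure D1:**
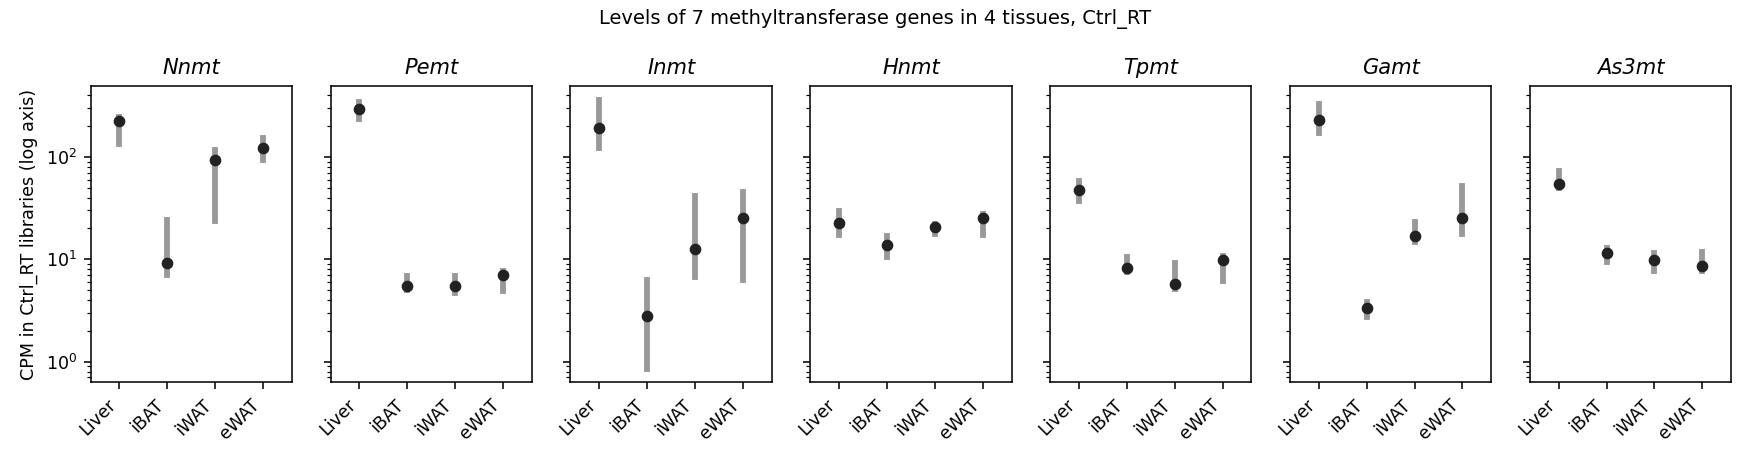
Level of the 7 genes in Ctrl_RT mice by tissue, as CPM normalized over all 4 tissues, on a log axis. Dots are medians and bars run from the lowest to the highest library of Ctrl_RT (4 for eWAT, 6 for iBAT and 7 each for liver and iWAT). Liver lies highest for every gene but Hnmt, although without TMM scaling eWAT passes liver for Nnmt, and with TMM the 4 tissues of Hnmt lie close together.

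The order of the tissues was tested between neighbours with a two-sided exact permutation test on log2 CPM, with p adjusted over the 21 pairs, and 12 of the 21 differed. The tissues share mice, which this test does not use, and tissues and count tables cannot be told apart except for iBAT and iWAT, which share a table. Nnmt was 207 ± 44.6 CPM (mean ± SD, here and below) in liver, 122 ± 30.7 in eWAT, 80.02 ± 32.4 in iWAT and 11.7 ± 6.33 in iBAT. Its white fat depots were not distinguished (exact permutation test, adjusted p = 0.159), while liver stood above eWAT (0.0231) and iWAT above iBAT (0.00707). Pemt was 293 ± 41.1 CPM in liver and between 5.58 and 6.67 CPM in the 3 fat depots, whose neighbours did not differ beyond their spread (exact permutation test, adjusted p = 0.22 and 0.834). Inmt was 210.4 ± 95.2 CPM in liver, 25.7 ± 16.05 in eWAT, 16.9 ± 12.3 in iWAT and 3.17 ± 1.77 in iBAT, with eWAT and iWAT not distinguished (exact permutation test, adjusted p = 0.483).

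Gamt was the member whose 4 tissues all differed between neighbours, from 242.5 ± 52.6 CPM in liver through 29.9 ± 15.3 in eWAT and 17.7 ± 2.90 in iWAT to 3.32 ± 0.366 in iBAT (exact permutation test, adjusted p = 0.00707, 0.0477 and 0.00306, the second 0.0867 with the left-out libraries put back). Hnmt was at 23.7 ± 4.46 CPM in eWAT, 22.7 ± 4.13 in liver, 20.3 ± 1.53 in iWAT and 13.7 ± 2.22 in iBAT, and with TMM only the last step passed (exact permutation test, adjusted p = 0.00306). Tpmt was 47.7 ± 6.23 CPM in liver, 9.09 ± 2.16 in eWAT, 8.55 ± 1.12 in iBAT and 6.17 ± 1.42 in iWAT, where eWAT and iBAT were not distinguished (exact permutation test, adjusted p = 0.76). As3mt was 59.4 ± 9.11 CPM in liver, above iBAT (11.3 ± 1.28), iWAT (9.75 ± 1.70) and eWAT (9.15 ± 1.84), and the fat depots did not differ beyond their spread (exact permutation test, adjusted p = 0.154 and 0.682). Without TMM scaling, the order of liver and eWAT turned for Nnmt (difference -0.05 on the log2 scale), that of iBAT and iWAT for Pemt (-0.43) and that of liver and iWAT for Hnmt (-0.61). The last pair then differed (exact permutation test, adjusted p = 0.00408), as did Hnmt between eWAT and liver (0.87, adjusted p = 0.0053) and Tpmt between eWAT and iBAT (0.57, adjusted p = 0.0214), while Tpmt between iBAT and iWAT did not (0.03, adjusted p = 0.828). Pemt then differed between all neighbouring fat depots (exact permutation test, adjusted p = 0.00769 and 0.00524).

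For the effects of diet and cold, 6 contrasts were tested in each tissue with edgeR's quasi-likelihood test over all genes, with Benjamini-Hochberg adjustment. A gene was called when it differed by at least 1.5-fold (between 0.58 and 0.59 on the log2 scale) in either direction with an adjusted p under 0.05, and "rose" and "fell" are used only for called genes. Fold changes are given as log2 ± standard error, and levels as TMM-normalized CPM within a tissue, a scale apart from that over all 4 tissues used above. The interaction is the cold effect on the MetR diet minus that on the Ctrl diet. The 3 comparisons against Ctrl_RT share their control libraries. MetR_RT against Ctrl_RT and MetR_CE against MetR_RT share the MetR_RT libraries, with opposite sign.

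In liver, Nnmt and Inmt were the members called, with Nnmt lower and Inmt higher on the MetR diet at room temperature. Ctrl_CE against Ctrl_RT gave 0 of 7 called by edgeR (1 with an unadjusted p under 0.05, and 0 by DESeq2), where 11.9% of all genes were called (7.28% higher and 4.64% lower). As3mt there had an adjusted p of 0.00271 (edgeR) and missed only the fold threshold. MetR_RT against Ctrl_RT gave 2 of 7, Inmt higher and Nnmt lower, where 6.91% of all genes were called (2.88% higher and 4.02% lower). MetR_CE against Ctrl_RT gave 1 of 7, Nnmt, lower, beside 13.5% of all genes (6.25% higher and 7.22% lower). Cold on the MetR diet (MetR_CE against MetR_RT) called the same 2 genes as diet alone, each in the opposite direction, beside 5.18% of all genes. Both contrasts use the MetR_RT libraries with opposite sign, so a shift of that group alone moves them in opposite directions. With cold on the MetR diet, 3 further members passed the adjusted p but not the fold threshold. They were Pemt (-0.36 ± 0.09, edgeR, adjusted p = 0.00381), Gamt (-0.43 ± 0.14, adjusted p = 0.0325) and Tpmt (0.25 ± 0.09, adjusted p = 0.0492). MetR_CE against Ctrl_CE called 0 of 7 (2 with an unadjusted p under 0.05, 0 by DESeq2) beside 5.26% of all genes. Both, Hnmt (-0.52 ± 0.13, edgeR, adjusted p = 0.00677) and Tpmt (-0.26 ± 0.09, adjusted p = 0.04997), missed only the fold threshold. The interaction called 0 of 7 by edgeR (3 with an unadjusted p under 0.05, 1 by DESeq2) beside 1.06%. Pemt there was -0.47 ± 0.12 (edgeR, adjusted p = 0.0452), under the fold threshold.

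Brown fat held the largest number of calls, 17 of 42 against 5 in liver, 7 in iWAT and 0 in eWAT. The count was 10 in iBAT by tag, 8 in liver without replicate 4 of Ctrl_CE and 11 in iWAT without replicate 5 of Ctrl_RT. Both replicates were picked after seeing that they stood apart, so the counts without them are only a description. Ctrl_CE against Ctrl_RT called 5 of 7 members, with Nnmt and As3mt higher and Pemt, Hnmt and Gamt lower, beside 14.7% of all genes (4.97% higher and 9.72% lower). MetR_RT against Ctrl_RT called Nnmt and Gamt, both lower, beside 2.5% of all genes (0.535% higher and 1.97% lower). MetR_CE against Ctrl_RT called Nnmt and As3mt higher and Hnmt and Gamt lower, beside 14.7% of all genes (4.36% higher and 10.3% lower). MetR_CE against MetR_RT called these 4 again in the same directions, beside 8.53%, and MetR_CE against Ctrl_CE called Nnmt and Gamt, lower, beside 1.64%. The interaction called 0 of 7 (1 with an unadjusted p under 0.05, 0 by DESeq2) beside 0.372% of all genes.

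In iWAT, Ctrl_CE against Ctrl_RT called Pemt and Inmt, both higher, beside 15.9% of all genes (5.99% higher and 9.94% lower). MetR_RT against Ctrl_RT called Inmt, higher, beside 11.6% (4.25% higher and 7.36% lower). MetR_CE against Ctrl_RT called Pemt and Inmt higher and Gamt lower, beside 22.4% (8.05% higher and 14.4% lower). MetR_CE against MetR_RT (1.88% of all genes) and MetR_CE against Ctrl_CE (2.27%) called 0 of 7 each, with 2 and 1 members at an unadjusted p under 0.05 and 0 each by DESeq2. Hnmt in MetR_CE against Ctrl_CE was 0.38 ± 0.09 (edgeR, adjusted p = 0.0282), under the fold threshold. The interaction called Pemt, beside 1.65% of all genes.

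In eWAT 0 of 42 values were called by edgeR, with 11 at an unadjusted p under 0.05, and DESeq2 called 1, the interaction of Tpmt. Hnmt in MetR_CE against Ctrl_CE had an adjusted p of 0.00587 (edgeR) and missed only the fold threshold. Over all genes 2.42% were called in Ctrl_CE (0.979% higher and 1.44% lower), 0.115% in MetR_RT (0.0324% higher and 0.0828% lower) and 1.3% in MetR_CE (0.601% higher and 0.695% lower), each against Ctrl_RT. The shares were 0.112% for MetR_CE against MetR_RT, 4.35% for MetR_CE against Ctrl_CE and 2.3% for the interaction. The median log2 fold change over the 7 members against Ctrl_RT lay between -0.16 (iBAT Ctrl_CE) and 0.34 (iWAT MetR_RT), where the medians of all genes were -0.08 and -0.03.

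**Figure D2:**
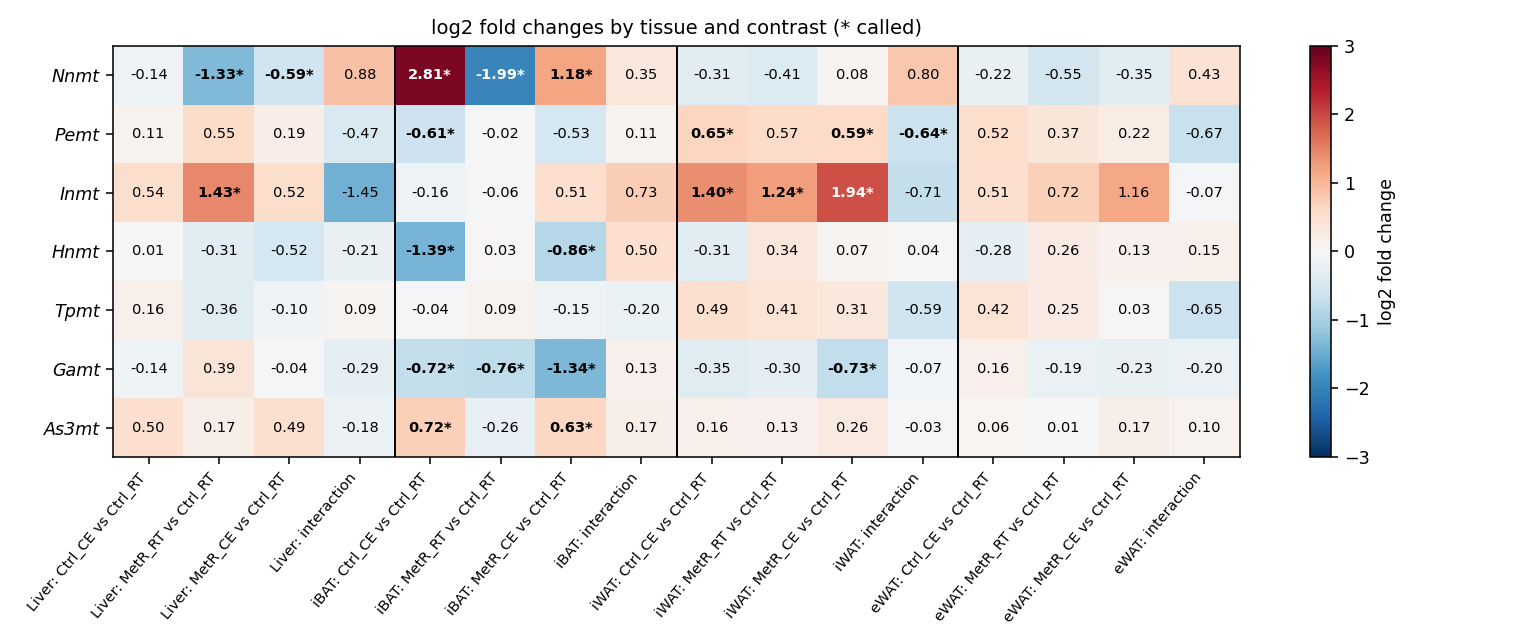
log2 fold changes of the 7 genes (rows) in 4 contrasts of each tissue (columns), with red for higher and blue for lower, and an asterisk where a gene was called. Most asterisks stand in iBAT, Nnmt in iBAT shows the largest values of both signs (2.81 and -1.99), and eWAT holds no asterisk.

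The 3 largest fold changes of any member were those of Nnmt in iBAT. In iBAT, Nnmt had 6.41, 8.23 and 21.5 CPM in the lowest, median and highest library of Ctrl_RT, 38.9, 68.8 and 116 CPM in Ctrl_CE, 1.16, 2.45 and 4.20 CPM in MetR_RT and 9.63, 22.5 and 43.02 CPM in MetR_CE. Every Ctrl_CE library lay above and every MetR_RT library below every Ctrl_RT library, while MetR_CE overlapped with Ctrl_RT. Nnmt rose in Ctrl_CE by 2.81 ± 0.33 (edgeR, adjusted p = 6.19e-08) and in MetR_CE by 1.18 ± 0.31 (adjusted p = 0.00372), and changed by -1.99 ± 0.36 in MetR_RT (adjusted p = 8.04e-04). Cold raised Nnmt on the MetR diet by 3.16 ± 0.35 (edgeR, adjusted p = 5.86e-08), and in the cold Nnmt was lower on the MetR than on the Ctrl diet, with a difference of -1.64 ± 0.30 (adjusted p = 0.0013). The interaction was 0.35 ± 0.47 (95% interval -0.56 to 1.26, adjusted p = 0.831).

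The 3 iBAT libraries with a differing tag bear on these calls, although in the other tissues the same mice are tagged as in their iBAT titles. Nnmt had 3.84 CPM in replicate 1 of MetR_RT (tagged as Ctrl_RT), 90.5 CPM in replicate 1 of Ctrl_CE (tagged as MetR_RT) and 15.8 CPM in replicate 1 of MetR_CE (tagged as Ctrl_CE), each within the range of the other libraries of its title's group. With groups by tag, the Nnmt change in MetR_RT was 0.69 (edgeR, adjusted p = 0.64) and that in MetR_CE 1.39 (adjusted p = 0.152), MetR_CE against MetR_RT was 0.70 (adjusted p = 0.592) and MetR_CE against Ctrl_CE -1.29 (adjusted p = 0.494), so that 4 calls were lost and the first turned. The call in Ctrl_CE held by tag, and all 5 calls held without the 3 libraries.

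In the same iBAT groups the summed level of 7 markers of fibroblasts and stroma was 408 to 996.1 CPM in Ctrl_RT, 203 to 532 CPM in Ctrl_CE, 196 to 319 CPM in MetR_RT and 134 to 257.3 CPM in MetR_CE, with all 7 measured. It was lower in MetR_RT, as Nnmt was, and lower in the cold groups, where Nnmt was higher. The 7 macrophage markers summed to 60.2 to 115 CPM, 46.9 to 99.3 CPM, 32.5 to 62.9 CPM and 27.9 to 51.1 CPM in the same order. All markers of both lists passed 1 CPM in at least 1 library of each group, and their part in the Nnmt levels was not tested.

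In liver, Nnmt had 103, 180.2 and 203 CPM in Ctrl_RT, 94.3, 116 and 364 CPM in Ctrl_CE, 46.2, 69.1 and 77.9 CPM in MetR_RT and 75.6, 113 and 132 CPM in MetR_CE. Every MetR_RT library lay below every Ctrl_RT and Ctrl_CE library, MetR_CE overlapped with each of the other groups, and a single Ctrl_CE library, replicate 4, stood at 363.71 CPM where the other 6 lay between 94.3 and 150.04 CPM. Nnmt fell in MetR_RT by 1.33 ± 0.22 (edgeR, adjusted p = 7.13e-05) and in MetR_CE by 0.59 ± 0.22 (adjusted p = 0.0406), and cold raised it on the MetR diet by 0.73 ± 0.22 (adjusted p = 0.0193). In Ctrl_CE the difference was -0.14 ± 0.22 (adjusted p = 0.687), and without replicate 4 it was -0.52 (adjusted p = 0.00773), under the fold threshold. In the cold the diet gave -0.45 ± 0.22 (adjusted p = 0.201), and -0.07 without that library. The interaction was 0.88 ± 0.31 (adjusted p = 0.148) and, without replicate 4 of Ctrl_CE, 1.26 (adjusted p = 0.00101), which was called. That library was left out after its high Nnmt was seen, so the values without it are only a description.

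The summed level of 7 macrophage markers in liver was 197 to 258.7 CPM in Ctrl_RT, 199 to 663 CPM in Ctrl_CE, 119.8 to 190.2 CPM in MetR_RT and 202 to 236 CPM in MetR_CE, and that of 5 endothelial markers was 64.7 to 86.9 CPM, 113 to 193 CPM, 87.8 to 109 CPM and 152 to 173 CPM in the same order. The highest macrophage sum was in replicate 2 of Ctrl_CE, not in the library with high Nnmt. The macrophage sum, like Nnmt, was lower in MetR_RT than in Ctrl_RT without overlap. The 8 hepatocyte markers summed to 73032 to 103590 CPM, 66062 to 85860 CPM, 63228 to 86853 CPM and 56563 to 64925 CPM in the same order. That sum was lower in MetR_CE than in Ctrl_RT without overlap. The part of these sums in the liver results was not tested.

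In iWAT, Nnmt was called in 0 of 6 contrasts by edgeR (smallest adjusted p = 0.216, 1 with an unadjusted p under 0.05) and in 0 by DESeq2. It had 27.4, 105 and 135 CPM in Ctrl_RT and between 37.6 and 114 CPM in the other groups, and the groups overlapped. In eWAT the 4 Ctrl_RT libraries had 197 CPM, 128 CPM, 124 CPM and 189 CPM of Nnmt, and MetR_RT had 103, 107 and 117 CPM, all below the lowest Ctrl_RT library. The change there was -0.55 ± 0.14 (edgeR, adjusted p = 0.119), which did not pass. The groups of 4 and 6 libraries do not overlap, in a contrast where 0.115% of all genes were called.

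**Figure D3:**
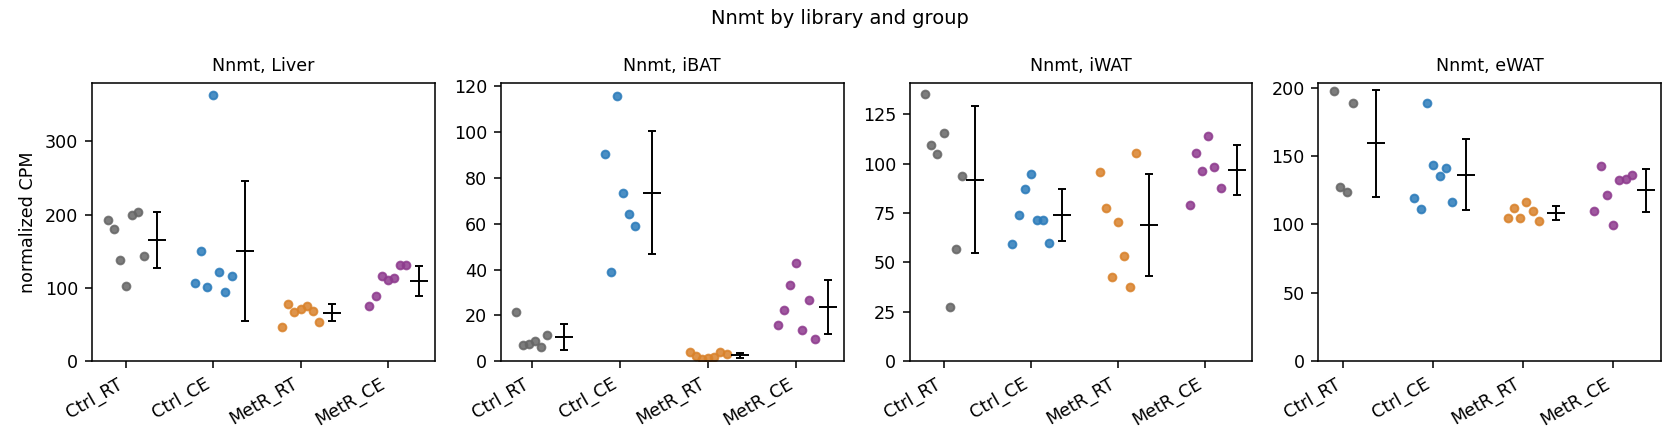
Normalized CPM of Nnmt in each library by group and tissue, with points for libraries and a dash and bar for mean ± SD (the axes differ and start at 0). In liver MetR_RT sits lowest (46.2 to 77.9 CPM), in iBAT Ctrl_CE sits highest (38.9 to 115.7 CPM) and MetR_RT lowest, and in iWAT the groups overlap.

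Inmt rose with diet at room temperature in liver, and with each stimulus and both together in iWAT. In liver it had 94.7, 152 and 293 CPM in Ctrl_RT, 54.3, 282.7 and 338 CPM in Ctrl_CE, 191, 470.2 and 694 CPM in MetR_RT and 165, 216 and 325 CPM in MetR_CE, so that MetR_RT was highest but overlapped with Ctrl_RT in its lowest library. Inmt rose in MetR_RT by 1.43 ± 0.30 (edgeR, adjusted p = 8.09e-04) and fell in MetR_CE against MetR_RT by 0.91 ± 0.30 (adjusted p = 0.0291). In the cold the diet gave -0.02 ± 0.29 (adjusted p = 0.981), and MetR_CE against Ctrl_RT was 0.52 ± 0.29 (adjusted p = 0.196), neither called. Replicate 4 of Ctrl_CE, the library with high Nnmt, had the lowest Inmt of the tissue, 54.3 CPM. This library was left out in a fit chosen after seeing the data. Without it Inmt was called in Ctrl_CE (0.73, edgeR, adjusted p = 0.0256, against 0.54 ± 0.29 and adjusted p = 0.18 with it) and in the interaction (-1.62, adjusted p = 0.00736, against -1.45 ± 0.42 and adjusted p = 0.0653). DESeq2 called the interaction with all libraries (-1.43, adjusted p = 0.0311).

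In iWAT, Inmt had 7.81, 14.1 and 47.6 CPM in Ctrl_RT, 30.5, 52.3 and 76.7 CPM in Ctrl_CE, 31.8, 38.8 and 80.9 CPM in MetR_RT and 46.3, 74.3 and 106 CPM in MetR_CE. Each treated group overlapped with Ctrl_RT only through the highest Ctrl_RT library, replicate 4, since the next highest had 27.3 CPM. Inmt rose by 1.40 ± 0.33 in Ctrl_CE (edgeR, adjusted p = 0.00208), 1.24 ± 0.33 in MetR_RT (adjusted p = 0.00717) and 1.94 ± 0.35 in MetR_CE (adjusted p = 6.30e-05). The interaction was -0.71 ± 0.47 (95% interval -1.63 to 0.22, adjusted p = 0.46). In iBAT it lay between 0.490 and 6.09 CPM over all groups and was not called. In eWAT it ran from 1.82 to 108 CPM in Ctrl_CE alone, and its largest change, 1.16 ± 0.62 in MetR_CE, did not pass (edgeR, adjusted p = 0.389).

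Pemt, which makes phosphatidylcholine from phosphatidylethanolamine, moved in opposite directions with cold in the 2 depots of the shared table. In iWAT, Pemt had 5.42, 6.20 and 7.92 CPM in Ctrl_RT, 9.22, 10.01 and 11.3 CPM in Ctrl_CE, 8.21, 9.21 and 10.9 CPM in MetR_RT and 7.13, 9.64 and 11.1 CPM in MetR_CE. Ctrl_CE and MetR_RT lay above every Ctrl_RT library, and MetR_CE overlapped. Pemt rose by 0.65 ± 0.10 in Ctrl_CE (edgeR, adjusted p = 1.61e-05) and by 0.59 ± 0.10 in MetR_CE (adjusted p = 3.50e-05), the latter at the fold threshold and lost without the muscle-rich libraries (0.53), with filterByExpr (0.56) and with the replicate number as a block (0.57). In MetR_RT the difference of 0.57 ± 0.10 (adjusted p = 1.56e-04) lay just under the threshold. The interaction was -0.64 ± 0.14 (edgeR, adjusted p = 0.0164), between a cold effect of 0.65 ± 0.10 on the Ctrl diet and of 0.02 ± 0.10 on the MetR diet.

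In iBAT, Pemt had 4.44, 4.96 and 6.08 CPM in Ctrl_RT, 2.13, 3.45 and 4.46 CPM in Ctrl_CE, 3.56, 5.12 and 5.85 CPM in MetR_RT and 2.86, 3.47 and 4.26 CPM in MetR_CE. Every MetR_CE library lay below every Ctrl_RT library, and Ctrl_CE overlapped through its highest library. Pemt fell in Ctrl_CE by 0.61 ± 0.15 (edgeR, adjusted p = 0.00167), which apeglm shrinkage (-0.55) and grouping by tag (-0.58) brought under the threshold, and was -0.53 ± 0.14 in MetR_CE (adjusted p = 0.00494), not called. In liver, Pemt had 188, 237 and 281.5 CPM in Ctrl_RT and 293.9, 338 and 422 CPM in MetR_RT, without overlap, and 215 to 294.7 CPM and 246 to 301 CPM in Ctrl_CE and MetR_CE. The liver difference in MetR_RT was 0.55 ± 0.09 (adjusted p = 3.00e-05), under the fold threshold. In eWAT the 4 Ctrl_RT libraries had 6.45 CPM, 9.87 CPM, 8.65 CPM and 9.81 CPM of Pemt, and the largest difference was the interaction, -0.67 ± 0.25 (adjusted p = 0.136). With the replicate number as a block it was called (-0.77, adjusted p = 0.036), and so was Ctrl_CE (0.60, adjusted p = 0.025, against 0.52 ± 0.19 and adjusted p = 0.108 without it).

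In iWAT the summed stromal markers were 7781 to 24518 CPM in Ctrl_RT, 1284 to 11359 CPM in Ctrl_CE, 2349.9 to 7017 CPM in MetR_RT and 1309.8 to 2362 CPM in MetR_CE. The 7 brown adipocyte markers summed to 93.5 to 872 CPM, 883 to 6090.2 CPM, 477 to 5209 CPM and 3382 to 7925 CPM in the same order, and the 7 macrophage markers to 1213 to 2243 CPM, 306 to 1503 CPM, 249.8 to 1076 CPM and 197 to 476 CPM. The stromal and macrophage sums were lower and the brown adipocyte sum higher in the treated groups, where Inmt and Pemt were higher. All markers of these 3 lists were measured above 1 CPM in at least 1 library of each group. Their part in those results was not tested.

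**Figure D4:**
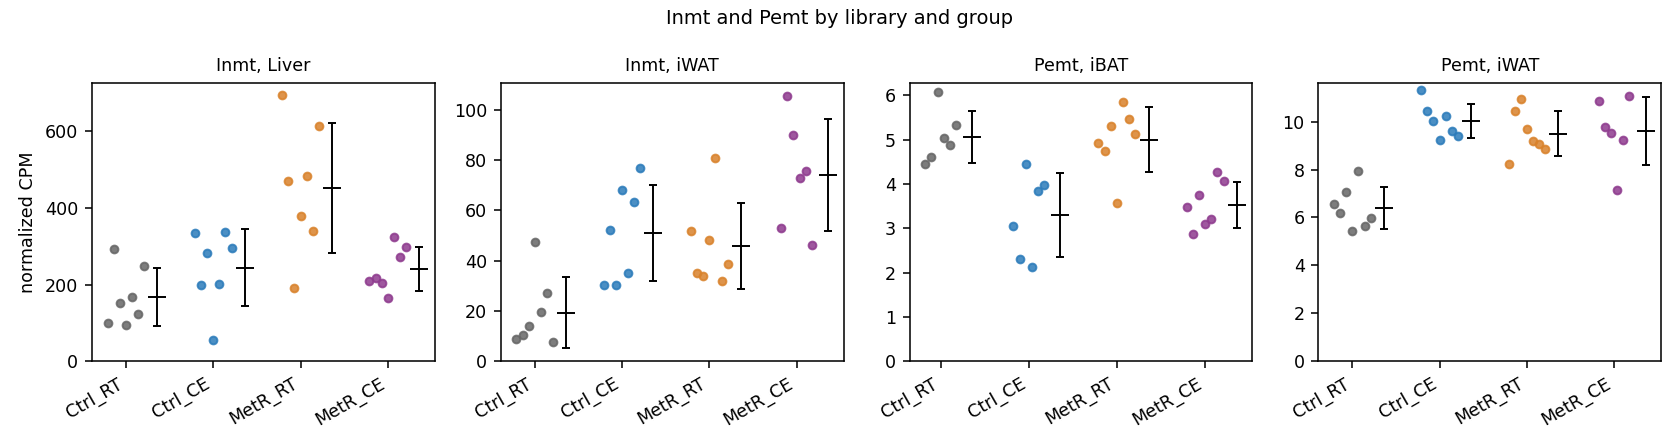
Normalized CPM of Inmt in liver and iWAT and of Pemt in iBAT and iWAT, by library (points) with mean ± SD (dash and bar), on axes that start at 0. Inmt in liver is highest in MetR_RT (190.7 to 694 CPM), and Pemt with cold is lower in iBAT (2.13 to 4.46 CPM in Ctrl_CE) and higher in iWAT (9.22 to 11.3 CPM).

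Hnmt, the enzyme that inactivates histamine inside cells, fell with cold in iBAT. It had 9.47, 12.4 and 14.8 CPM in Ctrl_RT, 3.47, 4.55 and 6.19 CPM in Ctrl_CE, 10.6, 12.3 and 13.6 CPM in MetR_RT and 5.96, 6.54 and 7.89 CPM in MetR_CE, and neither cold group overlapped with either room temperature group. It fell by 1.39 ± 0.12 in Ctrl_CE (edgeR, adjusted p = 2.20e-10), by 0.86 ± 0.11 in MetR_CE against Ctrl_RT (adjusted p = 4.17e-07) and by 0.89 ± 0.11 in MetR_CE against MetR_RT (adjusted p = 3.12e-07). In the cold it was 0.53 ± 0.12 on the MetR diet (adjusted p = 0.00686), under the fold threshold, and 0.69 (adjusted p = 0.0128), called, without the muscle-rich libraries. The mast cell markers, of which 5 of 6 were measured in iBAT, summed to 35.9 to 78.3 CPM in Ctrl_RT, 14.7 to 32.9 CPM in Ctrl_CE, 46.1 to 81.6 CPM in MetR_RT and 20.7 to 28.6 CPM in MetR_CE, lower in both cold groups as Hnmt was. Of the 5, 1 stayed under 1 CPM in every library of Ctrl_RT and 3 did in each other group. Their part in the Hnmt result was not tested.

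Elsewhere Hnmt was not called. In liver it was -0.52 ± 0.13 in MetR_CE (edgeR, adjusted p = 0.00275), with 13.96, 18.6 and 24.1 CPM in Ctrl_RT and 10.5, 13.2 and 14.9 CPM in MetR_CE, which overlapped. In iWAT it was -0.31 ± 0.09 with cold (adjusted p = 0.0107) and 0.34 ± 0.09 with diet (adjusted p = 0.00713). In eWAT the 4 Ctrl_RT libraries had 35.9 CPM, 33.2 CPM, 22.9 CPM and 31.7 CPM, and MetR_CE was higher than Ctrl_CE by 0.41 ± 0.09 (edgeR, adjusted p = 0.00587), under the fold threshold.

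Gamt, which completes creatine, fell with diet and with cold in iBAT, where its level was lowest among the tissues. It had 2.46, 3.03 and 3.39 CPM in Ctrl_RT, 1.32, 1.66 and 2.77 CPM in Ctrl_CE, 1.40, 1.69 and 2.19 CPM in MetR_RT and 0.637, 1.14 and 1.59 CPM in MetR_CE. Both MetR groups lay below every Ctrl_RT library, and Ctrl_CE overlapped through its highest library. It fell by 0.72 ± 0.17 in Ctrl_CE (edgeR, adjusted p = 0.00129), by 0.76 ± 0.17 in MetR_RT (adjusted p = 0.00454) and by 1.34 ± 0.17 in MetR_CE (adjusted p = 3.38e-07), and the interaction was 0.13 ± 0.24 (95% interval -0.35 to 0.61). The further steps, -0.59 ± 0.17 from MetR_RT to MetR_CE (adjusted p = 0.0119) and -0.62 ± 0.18 from Ctrl_CE to MetR_CE (adjusted p = 0.0376), lay near the thresholds. The first was lost with DESeq2 (-0.58), with no filter on counts, with only the groups compared, with grouping by tag (-0.53) and without the 3 tagged libraries (-0.55). The second was lost with no filter (adjusted p = 0.054), with only the groups compared (0.102), with grouping by tag (0.189) and without the muscle-rich libraries (0.165). Hepatocyte markers in iBAT summed to 46.7 to 139 CPM in Ctrl_RT, 4.74 to 53.3 CPM in Ctrl_CE, 4.54 to 16.8 CPM in MetR_RT and 6.29 to 32.4 CPM in MetR_CE, with 1, 5, 7 and 5 of the 8 under 1 CPM in every library of these groups, beside 56563 to 103590.0 CPM in liver. Their part in the iBAT level of Gamt was not tested.

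In iWAT, Gamt had 16.9, 19.9 and 25.9 CPM in Ctrl_RT and 8.65, 12.2 and 15.2 CPM in MetR_CE, without overlap, and fell by 0.73 ± 0.21 (edgeR, adjusted p = 0.00787). Each stimulus alone gave -0.35 ± 0.20 (cold) and -0.30 ± 0.20 (diet), neither called. Hepatocyte markers in iWAT summed to 721 to 2601 CPM in Ctrl_RT and 250.4 to 566 CPM in MetR_CE, with 6 and 5 of the 8 under 1 CPM in every library, and both this sum and the stromal sum above were lower in MetR_CE without overlap, as Gamt was. Their part in the Gamt result was not tested. In liver it had 138, 178 and 265.4 CPM in Ctrl_RT and 210.0, 266.9 and 276.97 CPM in MetR_RT, and the difference of 0.39 ± 0.14 did not pass (adjusted p = 0.0518). In eWAT it lay between 17.8 and 89.6 CPM with no call.

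As3mt, the arsenic methyltransferase, rose with cold in iBAT on both diets. It had 8.30, 10.2 and 11.6 CPM in Ctrl_RT, 13.1, 15.97 and 21.3 CPM in Ctrl_CE, 7.02, 8.07 and 10.2 CPM in MetR_RT and 13.4, 14.8 and 21.03 CPM in MetR_CE, and both cold groups lay above both room temperature groups without overlap. The rise was 0.72 ± 0.12 in Ctrl_CE (edgeR, adjusted p = 1.87e-05), 0.63 ± 0.12 in MetR_CE against Ctrl_RT (adjusted p = 7.37e-05) and 0.89 ± 0.11 against MetR_RT (adjusted p = 6.97e-07). The second was 0.55 and under the threshold without the muscle-rich libraries. In liver, As3mt was 0.50 ± 0.12 in Ctrl_CE (adjusted p = 0.00271) and 0.49 ± 0.12 in MetR_CE (adjusted p = 0.00273), both under the fold threshold. MetR_CE (62.2 to 73.4 CPM) did not overlap with Ctrl_RT (40.1 to 58.8 CPM). In iWAT and eWAT it was not called, with values from -0.03 to 0.26.

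Tpmt, the thiopurine methyltransferase, was called in 0 of 24 values by edgeR (11 with an unadjusted p under 0.05) and in 2 by DESeq2, the interactions in iWAT and eWAT. In iBAT it was nearly flat, with 6.84, 7.33 and 9.33 CPM in Ctrl_RT and group medians between 7.11 and 8.59 CPM. In liver it was -0.36 ± 0.09 in MetR_RT (edgeR, adjusted p = 0.00478), with 29.6, 38.4 and 44.7 CPM in Ctrl_RT and 25.0, 29.01 and 34.1 CPM in MetR_RT. In iWAT it was 0.49 ± 0.13 in Ctrl_CE (adjusted p = 0.00372) and 0.41 ± 0.13 in MetR_RT (adjusted p = 0.0183), under the fold threshold. A single iWAT Ctrl_RT library, replicate 5, had 10.7 CPM of Tpmt where the other 6 lay between 5.89 and 7.07 CPM. This library was left out in a fit chosen after it was seen to stand apart. Without it Tpmt was called in Ctrl_CE (0.62, edgeR, adjusted p = 1.13e-04) and in the interaction (-0.71, adjusted p = 0.00647, against -0.59 ± 0.18 and adjusted p = 0.0681 with it), Pemt was called in MetR_RT (0.63) and Nnmt in the interaction (0.96, adjusted p = 0.043).

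**Figure D5:**
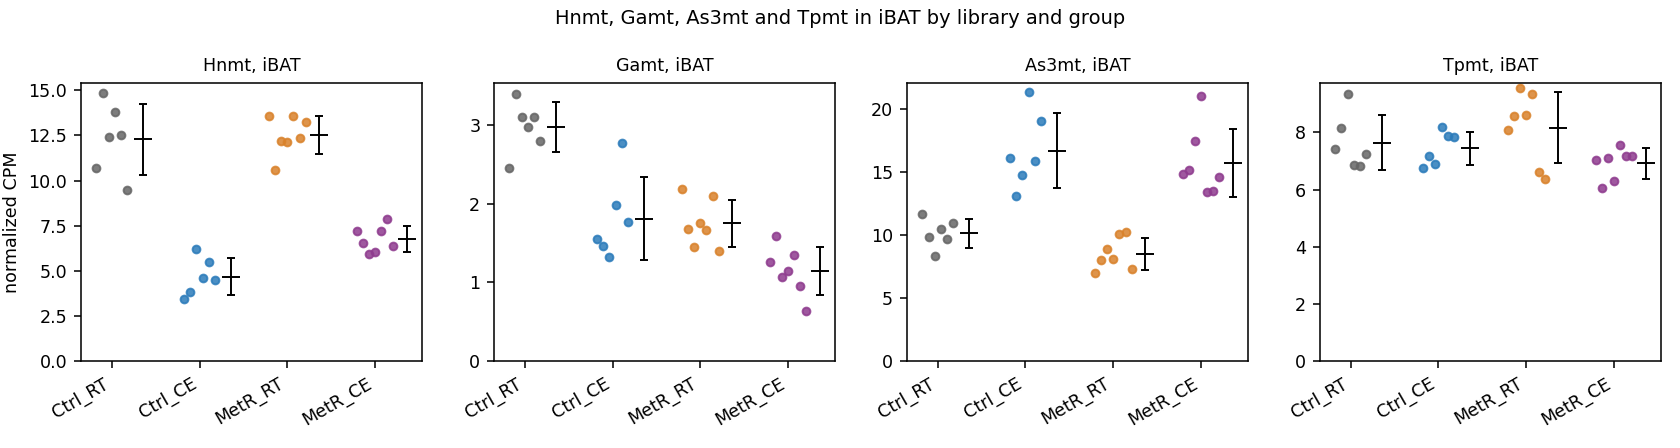
Normalized CPM of Hnmt, Gamt, As3mt and Tpmt in iBAT by library (points) with mean ± SD (dash and bar), on axes that start at 0. Hnmt is lower and As3mt higher in both cold groups without overlap with the room temperature groups, Gamt is lowest in MetR_CE, and Tpmt overlaps in all 4 groups.

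Whether an effect differed between tissues was tested in a joint edgeR fit over the 105 libraries for 4 pairs of tissues, and 13 of 56 differences were called over the members. In this fit 19993 genes were tested. The tissues share mice, and the fit holds no term for the mouse. For cold on the Ctrl diet, 15.7% of genes were called between liver and iBAT, 19.4% between liver and iWAT, 13.6% between iBAT and iWAT and 7.24% between iWAT and eWAT. For the MetR diet at room temperature the shares were 4.18%, 12.1%, 6.38% and 6.4%. The cold effect on Nnmt in iBAT exceeded that in liver by 2.95 ± 0.37 (adjusted p = 4.86e-10), and in iWAT it differed from that in iBAT by -3.12 ± 0.37 (adjusted p = 2.40e-10). The cold effect on Hnmt in iBAT differed from that in liver by -1.42 ± 0.17 (adjusted p = 6.85e-11) and that in iWAT from iBAT by 1.09 ± 0.17 (adjusted p = 2.97e-07). For Pemt the same pairs gave -0.75 ± 0.18 (adjusted p = 7.66e-04) and 1.27 ± 0.19 (adjusted p = 1.78e-07).

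For the MetR diet the Nnmt effect in iWAT differed from that in liver by 0.91 ± 0.34 (adjusted p = 0.0448) and from that in iBAT by 1.59 ± 0.39 (adjusted p = 0.00274) in the joint edgeR fit. The Pemt effect in iBAT differed from liver by -0.59 ± 0.18 (adjusted p = 0.0208) and in iWAT from iBAT by 0.60 ± 0.18 (adjusted p = 0.0192). Between iWAT and liver, Hnmt differed by 0.64 ± 0.16 (adjusted p = 0.00112) and Tpmt by 0.76 ± 0.16 (adjusted p = 1.83e-04). The Gamt effect in iBAT differed from that in liver by -1.16 ± 0.34 (adjusted p = 0.0161). The Nnmt difference between iWAT and liver was lost with all 110 libraries (0.90, adjusted p = 0.0683), as was that of Pemt between iBAT and liver (-0.58, adjusted p = 0.0276, under the fold threshold). The Gamt difference was lost with limma's voom and the mouse as a block (-1.19, adjusted p = 0.182). The 110 libraries added a call for Tpmt between iWAT and eWAT (-0.66, adjusted p = 0.0374), and voom one for Gamt between liver and iWAT (-0.79, adjusted p = 0.0229). With the 105 libraries the edgeR fit called no member between iWAT and eWAT, and neither As3mt nor Inmt between any of the 4 pairs.

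Around the members, 7 pathway lists with 85 genes were counted in the same edgeR fits. Of the genes that supply SAM and remove its product, 1 of 11 in liver was called higher in Ctrl_CE, 1 higher and 2 lower in MetR_RT and 2 higher and 1 lower in MetR_CE, with list medians of 0.07, -0.01 and 0.13 beside -0.01, 0.00 and -0.04 for all genes. The shares of all genes called there were 11.9%, 6.91% and 13.5%. Mat1a, the liver's methionine adenosyltransferase, had 1755, 2598 and 4962 CPM in Ctrl_RT and 7386, 7756 and 8894 CPM in MetR_CE, and rose by 0.86 ± 0.16, 0.59 ± 0.16 and 1.37 ± 0.16 in Ctrl_CE, MetR_RT and MetR_CE, the second at the fold threshold (0.58 with RLE factors). Bhmt, which remethylates homocysteine with betaine, fell in MetR_RT by 1.12 ± 0.18 (adjusted p = 3.28e-05) and was 0.04 ± 0.18 in MetR_CE, with an interaction of 1.23 ± 0.25 (adjusted p = 0.00937). Mat2a, the adenosyltransferase of other tissues, was 0.54 ± 0.08 in liver MetR_RT (adjusted p = 1.01e-05), under the threshold, and 0.45 ± 0.09 in iWAT and 0.57 ± 0.10 in eWAT MetR_CE. Ahcy, which splits S-adenosylhomocysteine, lay between -0.28 and 0.22 against Ctrl_RT in all 4 tissues.

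Of 12 other methyltransferases that use SAM, 9 were tested in liver and 10 in iBAT and iWAT. In liver Gnmt, which methylates glycine and is held to buffer the SAM level, was called higher in MetR_RT. Gnmt had 1002, 1399 and 1636 CPM in Ctrl_RT and 1674, 2119 and 2482 CPM in MetR_RT, and rose by 0.60 ± 0.11 (edgeR, adjusted p = 1.63e-04), at the threshold (0.55 with apeglm shrinkage). In iBAT 2 rose and 2 fell in Ctrl_CE and in MetR_CE, each against Ctrl_RT and beside 14.7% of all genes called. In iWAT 2 rose and 1 fell in Ctrl_CE, 2 rose in MetR_RT and 4 rose in MetR_CE, with list medians of 0.42, 0.39 and 0.54 beside -0.11, -0.03 and -0.08 for all genes. Of all genes 15.9%, 11.6% and 22.4% were called in these comparisons. In eWAT 1 of 12 was lower in Ctrl_CE and in MetR_CE, beside 2.42% and 1.3% of all genes called. That gene, Mettl7a1, has near-identical copies, so its counts are uncertain. Its MetR_CE call (-0.72 ± 0.19, adjusted p = 0.0402) was lost with no filter (adjusted p = 0.0526), with all libraries (0.268), without replicate 1 (0.201), 3 (0.0638) or 7 (0.0713) of Ctrl_RT, and without the epididymis-rich libraries (0.0712).

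In nicotinamide and NAD metabolism, where Nnmt stands, 3 of 17 tested genes were higher in liver Ctrl_CE, 1 in MetR_RT and 4 (with 1 lower) in MetR_CE, with medians of 0.25, 0.08 and 0.22 beside -0.01, 0.00 and -0.04 for all genes. Of all liver genes 11.9%, 6.91% and 13.5% were called. Nampt, the salvage enzyme that competes with Nnmt for nicotinamide, had 30.3, 34.8 and 39.4 CPM in liver Ctrl_RT, 47.8, 54.1 and 62.6 CPM in Ctrl_CE and 48.6, 66.8 and 89.9 CPM in MetR_CE, and rose by 0.63 ± 0.10 and 0.94 ± 0.10. In MetR_RT, where Nnmt fell, it was 0.33 ± 0.10 (adjusted p = 0.0164), under the threshold. Aox1, an aldehyde oxidase that oxidizes methylated nicotinamide, had 57.2, 75.2 and 111 CPM in Ctrl_RT and 176, 204 and 257.9 CPM in MetR_RT and rose by 0.67 ± 0.12, 1.45 ± 0.12 and 1.31 ± 0.12 in Ctrl_CE, MetR_RT and MetR_CE. In iBAT, where Nnmt rose with cold, Aox1 fell by 0.86 ± 0.07 in Ctrl_CE and Nampt was -0.30 ± 0.08. Of the 18 genes in iBAT 2 were called in Ctrl_CE, both lower, and in iWAT 1 rose and 4 fell in Ctrl_CE and 2 rose and 4 fell in MetR_CE. Over all genes 14.7% were called in iBAT Ctrl_CE, and 15.9% and 22.4% in iWAT Ctrl_CE and MetR_CE. Bst1, an NAD-cleaving enzyme also known from stromal cells, had 9.86, 15.5 and 43.7 CPM in iWAT Ctrl_RT and 1.05, 1.28 and 2.15 CPM in MetR_CE and fell by 3.73 ± 0.45, beside the stromal sums given above.

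In phosphatidylcholine and choline metabolism, the surroundings of Pemt, 18 of 18 genes were tested in each tissue. In iBAT 3 rose and 1 fell in both Ctrl_CE and MetR_CE, with medians of 0.09 and 0.06 beside -0.08 and -0.10 for all genes, of which 14.7% were called in each. Pcyt2, the key enzyme of phosphatidylethanolamine synthesis, had 136, 152 and 175 CPM in Ctrl_RT and 279.4, 290.9 and 312 CPM in Ctrl_CE. It rose by 0.95 ± 0.06 in Ctrl_CE and by 0.91 ± 0.06 in MetR_CE, both against Ctrl_RT. Ptdss2, a phosphatidylserine synthase, rose by 0.85 ± 0.06 and 0.82 ± 0.06, and Chdh, which oxidizes choline, fell by 1.11 ± 0.13 and 0.79 ± 0.12. In liver Chka, a choline kinase, had 45.8, 83.4 and 165 CPM in Ctrl_RT and 26.1, 30.4 and 38.9 CPM in Ctrl_CE, and fell by 1.64 ± 0.21 in Ctrl_CE and 2.11 ± 0.22 in MetR_CE. There 1 rose and 1 fell in each cold group, beside 11.9% (Ctrl_CE) and 13.5% (MetR_CE) of all genes called. In iWAT 4 rose and 1 fell in Ctrl_CE, 4 rose in MetR_RT, and 3 rose and 1 fell in MetR_CE. Over all iWAT genes the shares called were 15.9%, 11.6% and 22.4%.

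In creatine metabolism, 2 of 7 genes rose in iBAT in Ctrl_CE and in MetR_CE against Ctrl_RT, where Gamt fell, with list medians of -0.29 and -0.36 beside 14.7% and 14.7% of all genes called. Ckb, a creatine kinase known in thermogenic fat, had 23.3, 24.7 and 70.7 CPM in Ctrl_RT, 134, 193 and 339.7 CPM in Ctrl_CE, 16.4, 20.8 and 38.3 CPM in MetR_RT and 57.8, 84.4 and 147 CPM in MetR_CE, and rose by 2.68 ± 0.28 and 1.42 ± 0.26. Gatm, which forms guanidinoacetate ahead of Gamt, was -0.55 ± 0.37 in iBAT Ctrl_CE (adjusted p = 0.282) and rose in liver Ctrl_CE by 0.83 ± 0.14. Slc6a8, the creatine transporter, was -0.38 ± 0.08 in iBAT Ctrl_CE (adjusted p = 1.65e-04), under the threshold, and fell in liver MetR_CE by 0.94 ± 0.15. In iWAT Alpl, a phosphatase that acts on phosphocreatine, had 2.38, 4.43 and 6.28 CPM in Ctrl_RT and 14.2, 18.7 and 29.2 CPM in MetR_CE and rose by 1.37 ± 0.34, 1.44 ± 0.34 and 2.18 ± 0.35. It was the 1 gene of 7 called there by edgeR, beside 15.9%, 11.6% and 22.4% of all genes. Gatm in iWAT MetR_CE was -0.72 ± 0.29 (adjusted p = 0.0541) and was called, lower, with DESeq2 (-0.71, adjusted p = 0.0385), filterByExpr, only the groups compared, the replicate block and without replicate 5 of Ctrl_RT.

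Of the histamine genes, 3 of 8 tested rose in liver in Ctrl_CE and in MetR_CE and 1 in MetR_RT, each against Ctrl_RT. The list medians were 0.86, 0.79 and -0.03 in Ctrl_CE, MetR_CE and MetR_RT, beside 11.9%, 13.5% and 6.91% of all genes called. Hdc, which makes histamine, had 6.13, 8.82 and 13.4 CPM in Ctrl_RT and 18.3, 21.6 and 31.8 CPM in MetR_CE and rose by 1.01 ± 0.17, 0.88 ± 0.17 and 1.30 ± 0.17. In iBAT 2 of 7 rose and 2 fell in Ctrl_CE (list median -0.51, beside 14.7% of all genes called). Slc22a3, a transporter of organic cations, had 61.3, 70.9 and 79.4 CPM in Ctrl_RT and 20.97, 26.4 and 43.3 CPM in Ctrl_CE and fell by 1.32 ± 0.14, Slc29a4, a monoamine transporter, had 0.346, 0.741 and 1.10 CPM and 1.03, 3.02 and 3.55 CPM and rose by 1.79 ± 0.26, and Hdc rose by 0.64 ± 0.18 (0.56, not called, by tag). In iWAT 2 of 8 fell in Ctrl_CE (list median -0.21, beside 15.9% of all genes called), and Hdc fell by 1.05 ± 0.37, a call lost with only the groups compared (adjusted p = 0.0965) and with the replicate number as a block (0.0945), where 1 Ctrl_RT library reached 22.9 CPM against a median of 3.77 CPM. Of 9 genes of purine analogue and arsenic handling, Abcc2, an export pump of conjugates, had 266.5, 419.9 and 580.5 CPM in liver Ctrl_RT and 608, 726 and 824 CPM in Ctrl_CE, and rose by 0.75 ± 0.11, 0.60 ± 0.11 and 0.81 ± 0.11, the second lost with RLE factors (0.58). In iBAT 2 were called in Ctrl_CE, both lower (list median -0.22), and in iWAT 2 were called in each comparison against Ctrl_RT, both higher (list medians 0.21, 0.07 and 0.13 in Ctrl_CE, MetR_RT and MetR_CE), beside the shares of all genes given above. By tag 1 of the 2 in iBAT, Xdh, which oxidizes purines, was not called (-0.57, adjusted p = 0.0507).

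The genes most alike to each member were taken in the tissue where the member's level within its table was highest, by Pearson's r of log2 CPM, over the 28 liver libraries (12513 genes with a mean of at least 1 CPM) or the 24 eWAT libraries kept (14475 genes). Since each is the best of many genes and the libraries share groups, r is only a description. In liver, Inmt was most like Aldh2 (0.88), Sucnr1 (0.865) and Macrod1 (0.855), Pemt like Selenbp1 (0.868), Shpk (0.853) and Bri3 (0.851), and As3mt like Slc25a44 (0.871), Mtmr12 (0.851) and Mbtps2 (0.846). Gamt was most like Ppcdc (0.84), Echs1 (0.826) and Serpinf1 (0.823), and Tpmt like Cyb5r3 (0.832), Bcl9 (0.811) and Lrba (0.805). In eWAT, Hnmt was most like Celf2 (0.912), Pcsk6 (0.885) and Scn7a (0.872), and Nnmt like Psat1 (0.84), Prpf31 (0.809) and Noct (0.808). After subtracting group means r lay between 0.613 (Pemt with Bri3) and 0.858 (Nnmt with Psat1).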

How the data were processed

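PolyA-selected RNA from 110 libraries was sequenced in pairs, and the authors deposited raw read counts per gene for liver, for eWAT and, in 1 table, for iBAT and iWAT. Per the labels, the build was mm10 and the tools STAR 2.7.9a, featureCounts 2.0.3, Salmon 1.9.0, MultiQC 1.19 and DESeq2 1.46.0. Which of featureCounts and Salmon gave the counts, and whether strand was used, are not given in the sources used here. The members and lists were chosen with earlier results of these data known.

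Genes with under 10 counts in a tissue in all were left out. Each tissue was fitted over its 4 groups in edgeR 4.0.16 (R 4.3.3) with TMM scaling and the quasi-likelihood test, without covariates, with Benjamini-Hochberg adjustment over all genes. Differences between tissues came from 1 edgeR fit over all tissues. Per-library values are TMM-scaled CPM without a prior count, and the permutation tests and correlations used log2 CPM with a prior count of 2. The scripts were tested on simulated data. Depth was 6987895 to 33444374 counts in liver, 12672686 to 31232349 in iBAT, 16607493 to 33141066 in iWAT and 22021114 to 33372110 in eWAT, and 0 pairs of libraries were identical.

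Groups came from the titles. The 5 libraries left out were those the study excluded, identified here among 8 possible sets in iBAT and 246 in eWAT. In each tissue the set was taken whose omission brought mean normalized counts, over all remaining libraries, closest to the study's source data. Within a tissue, the p-values measure the spread between mice. In the joint edgeR fit and the permutation tests of tissue levels, libraries of the same mouse were treated as independent. Tissue levels used a two-sided exact permutation test on log2 CPM. As alternatives, DESeq2 1.42.0 was run alone and with shrinkage by apeglm 1.24.0, beside RLE factors, other count filters, fits of only the groups compared, the replicate number as a block, libraries put back, groups by tag, and limma 3.58.1 with voom. Leaving out single libraries that stood apart, muscle-rich libraries (5 in iBAT and 4 in iWAT, with summed muscle markers over 5 times the tissue's median) or eWAT libraries with over 100 CPM of epididymis markers (2) was chosen after seeing the data.

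All members were tested in every tissue and contrast, and values that were not called are given only in part. Of a pathway list, at most the 2 largest rises and 2 largest falls called per tissue and contrast are named, besides Mat2a, Mat1a, Ahcy, Gnmt, Gatm, Slc6a8, Nampt, Hdc and Aox1, and for each member the 3 genes most like it. Places are those of GENCODE M21, in which 51948 of 56884 gene identifiers were found without their version and 35 with it. A result on 1 gene of the pathway lists is not reported here.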

Additional observations from a re-analysis of the deposited data

Results flagged for a closer look

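In 8 of 112 groups of 4, 6 or 7 libraries, 1 library lay far from the others of its group. The rule is set to flag 5% of groups of normally distributed values, but CPM were not transformed and members share libraries. The 8 groups, all flagged for a high value, therefore cannot be set against 5%. Nnmt had 363.71 CPM in replicate 4 of liver Ctrl_CE, where the others lay between 94.26 and 150.04 CPM, and 21.46 CPM in replicate 1 of iBAT Ctrl_RT, where the others lay between 6.4062 and 11.268 CPM. Replicate 3 of eWAT Ctrl_CE stood apart for 3 members, with Nnmt at 188.58 CPM (others 111.06 to 143.47), Gamt at 89.584 CPM (others 26.271 to 53.069) and As3mt at 17.81 CPM (others 10.789 to 12.785). Inmt had 80.884 CPM in replicate 5 of iWAT MetR_RT (others 31.844 to 51.908). Tpmt had 42.775 CPM in replicate 7 of liver MetR_CE (others 33.097 to 35.896) and 10.679 CPM in replicate 5 of iWAT Ctrl_RT (others 5.8944 to 7.0658).

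An effect differed between tissues in 13 of 56 tests of the difference itself (edgeR, log2 scale, second tissue minus first). For cold on the Ctrl diet, Nnmt differed by 2.95 from liver to iBAT and by -3.12 from iBAT to iWAT, Pemt by -0.75 and 1.27, and Hnmt by -1.42 and 1.09 in the same order. For the MetR diet at room temperature, Nnmt differed by 0.91 from liver to iWAT and by 1.59 from iBAT to iWAT, Pemt by -0.59 from liver to iBAT and by 0.60 from iBAT to iWAT, Hnmt by 0.64 and Tpmt by 0.76 from liver to iWAT, and Gamt by -1.16 from liver to iBAT. The effect of cold differed between diets in iWAT for Pemt, with an interaction of -0.64.

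The 5 left-out libraries gave 35 values of the members, and 8 lay above every Ctrl_RT library kept in that tissue. Left-out libraries were TMM-scaled with all libraries of the tissue and kept ones without them, so their CPM lie on different scales. Near ties in eWAT, Pemt at 9.8772 against 9.8683 CPM and As3mt at 15.743 against 15.591 CPM, may rest on the scaling alone. In iBAT the left-out Ctrl_CE library had 49.804 CPM of Nnmt, within the range of the kept Ctrl_CE libraries, and 15.787 CPM of As3mt. In eWAT the left-out Ctrl_RT libraries had 9.8772 CPM of Pemt (replicate 5), 63.603 CPM of Inmt (replicate 4), 44.134 CPM of Tpmt (replicate 2) and 80.195 CPM of Gamt (replicate 2), and replicate 7 of MetR_RT had 78.162 CPM of Inmt and 15.743 CPM of As3mt.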

How the results depend on the processing

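Of 42 values a tissue, 17 were called in iBAT, 7 in iWAT, 5 in liver and none in eWAT (edgeR, with the unadjusted counts and DESeq2's count given above). RLE factors changed the call of 0 of 168 values, DESeq2 of 5 of 168, and filterByExpr and no filter of 2 of 168 each. DESeq2 called 1 member in the liver interaction, also with apeglm shrinkage, 2 in iWAT MetR_RT, 2 in the iWAT interaction and 1 in the eWAT interaction, its only call in eWAT, and filterByExpr called 2 in the iWAT interaction. MetR_CE against Ctrl_CE in iBAT called 1 with no filter and 1 with only the groups compared. Without replicate 4 of liver Ctrl_CE, 1 member was called in Ctrl_CE, 2 in the interaction and 8 in all. Without replicate 5 of iWAT Ctrl_RT, 2 were called in MetR_RT, 3 in the interaction and 11 in all. Both replicates were picked after seeing that they stood apart. With groups by tag, iBAT gave 1 call in MetR_RT, 2 in MetR_CE against MetR_RT, 0 in MetR_CE against Ctrl_CE and 10 in all. Leaving out each eWAT Ctrl_RT library in turn, replicate 3 of eWAT Ctrl_CE or the epididymis-rich libraries changed no call of a member in eWAT.

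With the replicate number as a replicate block, eWAT gave 1 call in Ctrl_CE and 1 in the interaction, 2 in all, both of Pemt (0.60, adjusted p = 0.025, and -0.77, 0.036), and iWAT lost Pemt in MetR_CE (0.57). No other call of a member changed. The numbers did not pair the libraries, since same-numbered libraries had median correlations of 0.109 for eWAT, 0.0834 for iWAT, -0.00296 for liver and -0.00509 for iBAT, and 7 of 24, 4 of 27, 2 of 28 and 5 of 26 libraries correlated best with their own number.

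Signs turned for Nnmt in iBAT MetR_RT with groups by tag (0.69), for Mat1a in iBAT Ctrl_CE without the muscle-rich libraries (0.12), and, without TMM, for Nnmt between liver and eWAT (-0.054), Pemt between iBAT and iWAT (-0.43) and Hnmt between liver and iWAT (-0.61). The cause was not tested. Of the 21 neighbouring tissue levels 12 differed, against 15 without TMM and 11 with every Ctrl_RT library. A sign-flip test over shared mice gave 0, a design too small to pass (adjusted p 0.109 or 0.188). Of the 56 differences between tissues 13 were called, and 13 with voom and mouse as a block and 12 with all 110 libraries. In eWAT the 4 Ctrl_RT libraries limit the precision of every comparison, and Gamt and Inmt in iBAT lay under 1 CPM in some libraries.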
